A study of Brassica napus with 17 samples.

Results

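Among the genes expressed in freshly isolated microspores of Brassica napus (oilseed rape), 18 had a mean of about 1 CPM or less in every group of cultured samples. They were selected on measured values. Group means were taken over replicates from the log2 CPM table the authors deposited (CPM, counts per 1000000 counts of a library). A gene was a member if its day 0 mean was at least 4, which is 16 CPM, and each of the 5 culture group means was at most 0, which is 1 CPM. This left 18 of the 68491 genes in that table, of 101040 in the count table, and 18 of the 10117 genes that met the day 0 minimum. Because the selection used these values, the drop from day 0 is described here and not tested, and the tests below concern differences among the cultures.

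All 17 libraries came from 1 genotype, the doubled haploid line DH12075 with LEC1-GFP as reporter, and each was made from a pool of many microspores at the late unicellular stage or their cultured descendants. Day 0 microspores (3 libraries) were untreated. Heat-only cultures were held at 33 °C for 24 hours and then at 25 °C for 1 day (day 2, 3 libraries) or 3 days (day 4, 3 libraries). Heat plus TSA cultures had trichostatin A, an inhibitor of histone deacetylases, during the 24 hours of heat, and then 1, 3 or 7 days at 25 °C without it (day 2, 3 libraries, day 4, 3 libraries, and day 8, 2 libraries). Day 2 cultures received 0.5 µM TSA and day 8 cultures 0.05 µM. For day 4 the titles state 0.5 µM but the treatment entries state 0.05 µM. Every culture had the heat treatment, so heat, time and culture itself cannot be told apart in the drop from day 0, and day 8 has no heat-only partner.

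A microspore is the haploid cell that normally divides unequally and matures into a pollen grain, with a large vegetative cell that later forms the pollen tube and a small generative cell that gives the sperm. Heat stress of microspores at about this stage can divert them from that path to divide as embryos, a route used in rape breeding to make doubled haploid plants. Histone deacetylases remove acetyl groups from histones and are generally associated with repression of genes, and their inhibition by TSA can also promote divisions of cultured male gametophytes.

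The count table names genes only by ID, in which the letter and number give the subgenome and chromosome (BnaA01 is chromosome 1 of the A subgenome, and BnaCnn is a C subgenome gene with no chromosome assigned). None of the 18 IDs was found in the reference used here, the RefSeq gene table of assembly Da-Ae, in which 3347 IDs of the count table were found. The members therefore carry no gene name, product or function below, and no sequence is shown for them. Lists of pollen, tapetum and embryo markers could not be applied for the same reason, so the identity of the labelled cells was not checked against marker genes. B. napus has near-identical gene copies in its A and C subgenomes, and how shared reads were counted is not given in the sources used here, so the level of any one copy is uncertain.

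Total counts per library ran from 9360060 to 31407037, apart from 2716279 in day 0 replicate 3. At that depth 3 counts stand for 0.787 CPM in day 0 replicate 3 and for 0.0809 to 0.529 CPM in the other libraries. Levels that follow are CPM over TMM-scaled library sizes unless log2 CPM is named. The scaling factors were 0.439 to 0.606 in heat-only day 4 and 1.11 to 1.40 in day 0 and all TSA libraries, so levels in heat-only day 4 rest strongly on the scaling. Heat-only day 2 replicate 1 stood apart from the other 2 libraries of its group. A chi-square per degree of freedom between libraries of counts over genes was 29.5 and 27.7 against replicates 2 and 3, which differed from each other by 1.71, the closest pair of the study. Replicates 2 and 3 still differed by more than counting noise, which does not show that they were separate cultures. They were kept as 2 samples. The labels name a sequencing run only for day 0, TSA day 2 and TSA day 8, and none for TSA day 4 or either heat-only group. Run and group therefore cannot be told apart where TSA day 2 is compared with heat-only day 2 or with TSA day 4, and between TSA and heat-only cultures at day 4 the labels give no difference in run.

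The members were moderately expressed at day 0 and close across its libraries. Their day 0 means ran from 4.01 to 5.59 log2 CPM with a median of 4.59, beside a median of 4.86 over the 10117 genes above the day 0 minimum. The coefficient of variation of CPM over the 3 libraries had a median of 7.32% for the members and 8.13% for all genes above the minimum. Together the 18 genes had 573, 577 and 542 summed CPM in replicates 1, 2 and 3, or 0.0768% ± 0.000662 (SD, n = 3) of all counts. The 3 day 0 libraries agreed closely, the shallow replicate 3 included.

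**Figure D1:**
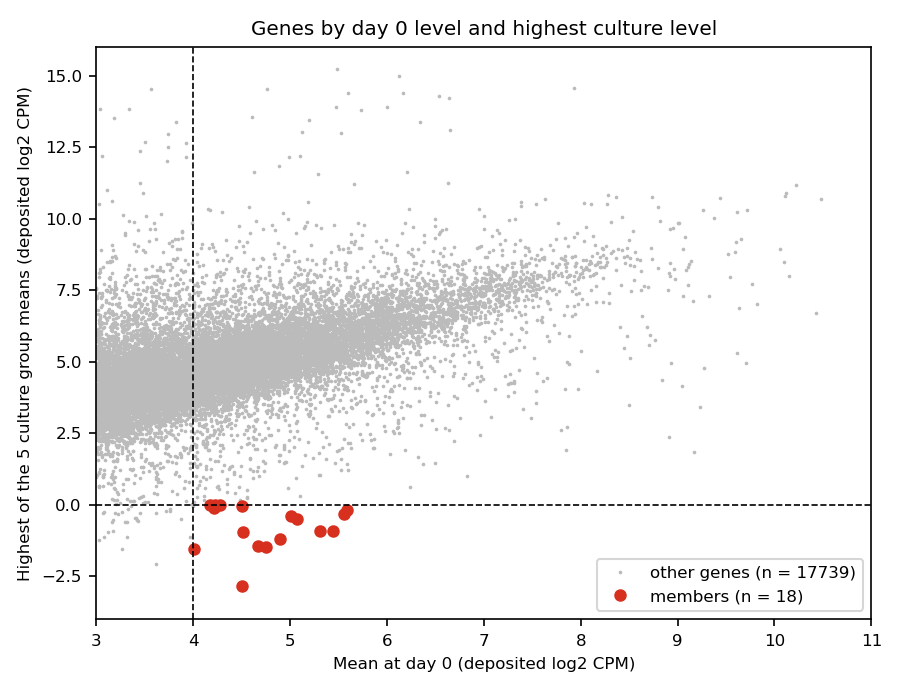
Each point is a gene with a day 0 mean of at least 3, with its day 0 mean on the x axis and the highest of its 5 culture group means on the y axis (both deposited log2 CPM). Dashed lines mark the limits of 4 and 0, and the 18 members (red) fill the lower right corner, the day 0 means lying between 4.01 and 5.59.

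The highest member, BnaA01g28900D on chromosome A01, had 52.0, 52.6 and 56.9 CPM in the 3 day 0 libraries. BnaC03g31730D on C03 had 51.1, 53.5 and 52.7 CPM, and BnaA09g50260D on A09 had 49.6, 48.0 and 48.5 CPM. The day 0 values of each of these 3 genes lay within a narrow band. BnaCnng20900D, a C subgenome gene, followed with 45.8, 44.4 and 42.5 CPM. BnaC09g43040D on C09 had 42.2, 37.8 and 33.3 CPM, and BnaA06g01730D on A06 had 38.3, 38.2 and 31.7 CPM. In both of these genes replicate 3 was the lowest of the 3 libraries. The remaining 4 of the 10 highest were BnaA09g09250D, BnaA04g08010D, BnaCnng75090D and BnaC01g38350D, with day 0 means of 4.89, 4.75, 4.66 and 4.51 log2 CPM. Levels of different genes are not corrected for gene length, which is not available here, so this order is one of counts and not of transcripts.

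Spread at day 0 was widest in 3 genes near the lower limit. BnaC03g23190D had 25.2, 23.3 and 15.2 CPM, a coefficient of variation of 25.0%. BnaC05g28280D had 23.7, 23.8 and 15.7 CPM (21.9%), and BnaC04g26440D had 19.9, 19.6 and 14.7 CPM (16.2%). In each of them replicate 3, with the fewest counts, was lowest, and 10 of the 18 members had their lowest day 0 level in that library. The share of all genes with their lowest day 0 level there was not computed, and the part of depth in these low values was not tested.

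The limits cut through a continuous range. Just inside the day 0 minimum were BnaC04g26440D, BnaA03g12340D and BnaA03g44820D with means of 4.01, 4.17 and 4.21 log2 CPM. Just outside it, with culture means at most 0, were BnaC04g28940D, BnaA05g28160D and BnaC07g03500D with 3.99, 3.97 and 3.87 log2 CPM. Just inside the culture limit were BnaA03g12340D and BnaC07g42100D, each with a highest culture mean of -0.02 log2 CPM, and BnaC03g23190D, also with -0.02. Just outside it were BnaAnng35110D, BnaCnng10130D and BnaA03g11130D with 0.09, 0.11 and 0.17 log2 CPM. Genes on either side of both limits thus differed little.

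Low levels in all 5 culture groups were rare among genes well expressed at day 0. Of the 10117 genes, 9302 were above the culture limit in every culture group and 535 were at or under it in a single group. A further 140 genes were under it in 2 groups, 84 in 3 and 38 in 4, and the 18 members in all 5. The number under the limit was 47 (0.465%) in heat-only day 2, 72 in heat-only day 4, 139 in TSA day 2, 275 in TSA day 4 and 776 (7.67%) in TSA day 8. Heat-only day 2 was thus the group in which fewest of these genes were low. Of the 38 genes that missed membership by 1 group, 26 were above the limit in heat-only day 2 alone, 10 in heat-only day 4 alone, 1 in TSA day 2 alone and 1 in TSA day 8 alone.

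Membership also turned on single libraries. Without heat-only day 2 replicate 1 the same rule kept 11 of the 18 genes. The 7 that went over the limit were BnaA03g12340D, BnaA03g41770D, BnaA03g44820D, BnaA09g50260D, BnaC01g38350D, BnaC03g23190D and BnaC03g31730D. Members were lowest in this replicate of the 3 in 13 of 18 cases (72.2%), against 58.0% of genes above the day 0 minimum and 39.7% of all genes in the table. The rule capped the mean of this group, so a low replicate 1 helped a gene to pass. The 72.2% therefore follows in part from the selection. With the culture limit raised to 1 or 2 the share was 62.0% of 50 genes and 57.1% of 126 genes. Leaving out heat-only day 4 replicate 1 removed BnaC03g31730D, BnaC05g28280D and BnaC07g42100D.

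Reads assigned to the members were still counted in the cultures, so their counts were not limited to fresh microspores in the strict sense. In the labels, day 0, TSA day 2 and TSA day 8 libraries of the same replicate number share a run and a lane. The part of the shared lanes, or of reads from similar gene copies, in the culture counts was not tested. The 18 genes had 39393 counts at day 0, 702 in heat-only day 2, 190 in heat-only day 4, 656 in TSA day 2, 256 in TSA day 4 and 86 in TSA day 8. No member was without counts in every culture group. A member had 0 counts in all libraries of a group in 2 cases at TSA day 4 (BnaA06g25210D and BnaC04g26440D) and in 6 cases at TSA day 8. Fewer cells that carry these transcripts and less transcript per cell cannot be told apart in these bulk libraries.

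In CPM summed over the 18 genes, heat-only day 2 had 5.96, 13.3 and 13.5 in replicates 1, 2 and 3, which is 10.9 ± 4.28 (SD, n = 3) or 1.93% of the day 0 level. Heat-only day 4 had 6.17, 8.16 and 7.76, which is 7.36 ± 1.05 (n = 3) or 1.31%. Replicate 1 of heat-only day 2 held less than each heat-only day 4 library, and its 2 sister libraries held more. With TSA the sum was 10.004, 6.60 and 5.73 at day 2, which is 7.44 ± 2.26 (n = 3) or 1.32% of day 0. It was 3.31, 4.47 and 2.22 at day 4, which is 3.33 ± 1.13 (n = 3) or 0.591%. The 2 libraries of TSA day 8 had 2.76 and 1.30, which is 2.03 ± 1.04 (n = 2) or 0.360%. The TSA day 4 libraries lay below all libraries of TSA day 2 and of heat-only day 4, while TSA day 2 overlapped heat-only day 2.

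As shares of raw counts, which no scaling touches, the members held 0.000923% ± 0.000412 (SD, n = 3) in heat-only day 2 and 0.000981% ± 0.000328 (n = 3) in TSA day 2. They held 0.000372% ± 1.35e-05 (n = 3) in heat-only day 4, 0.000376% ± 0.000123 (n = 3) in TSA day 4 and 0.000262% ± 0.000150 (n = 2) in TSA day 8. The gap between heat-only and TSA cultures seen in CPM at day 4 was absent on this scale, and the order at day 2 was the other way round.

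**Figure D2:**
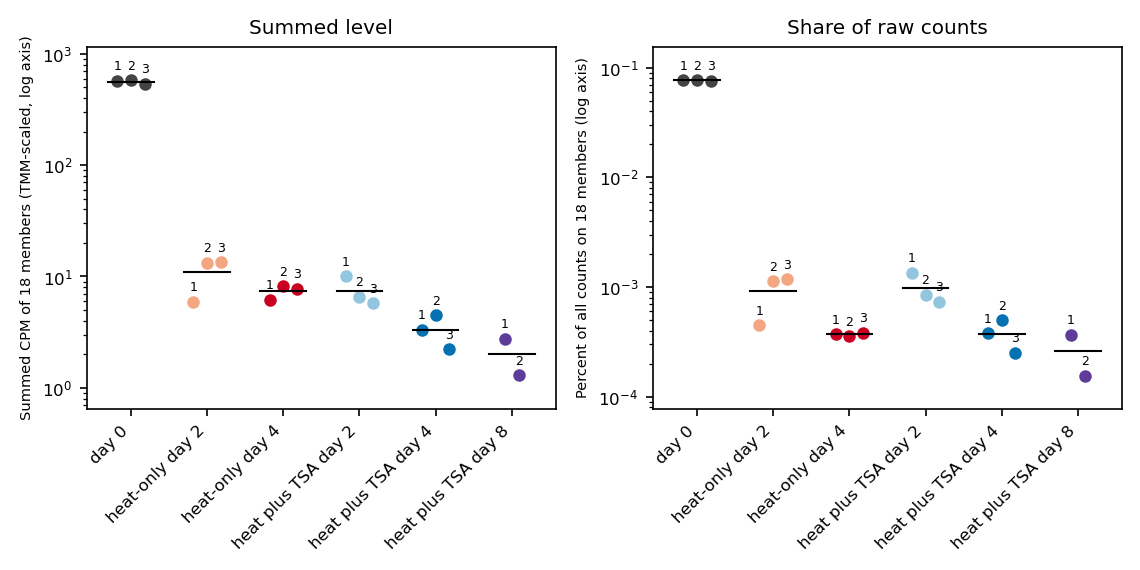
Points are libraries, numbered by replicate, and bars are group means. On the left is the CPM of the 18 members summed over TMM-scaled library sizes and on the right their percent of raw counts, both on a log axis. Day 0 lies at 542 to 577 CPM and no culture library exceeds 13.5 CPM, and TSA day 4 lies below heat-only day 4 on the left only.

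The fitted log2 fold change from day 0 (edgeR, no test, since the selection used it) had a median over the members of -5.82 in heat-only day 2 and -6.12 in heat-only day 4. With TSA it was -6.35 at day 2, -7.50 at day 4 and -9.58 at day 8. With the 6 genes at 0 counts in TSA day 8 set to the bound that 3 counts over the group allow, the day 8 median was -8.46. The median over all 64330 genes tested was between 0 and 0.10 in these contrasts.

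Among the 5 culture groups, heat-only day 2 had the highest mean CPM for 9 members, heat-only day 4 for 5, TSA day 2 for 3 and TSA day 8 for 1. TSA day 8 had the lowest for 15 and TSA day 4 for 3. The same order over all genes was not computed. Single members took different orders. BnaA03g12340D peaked in heat-only day 2, BnaC07g42100D in heat-only day 4 and BnaC09g43040D in TSA day 2.

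**Figure D3:**
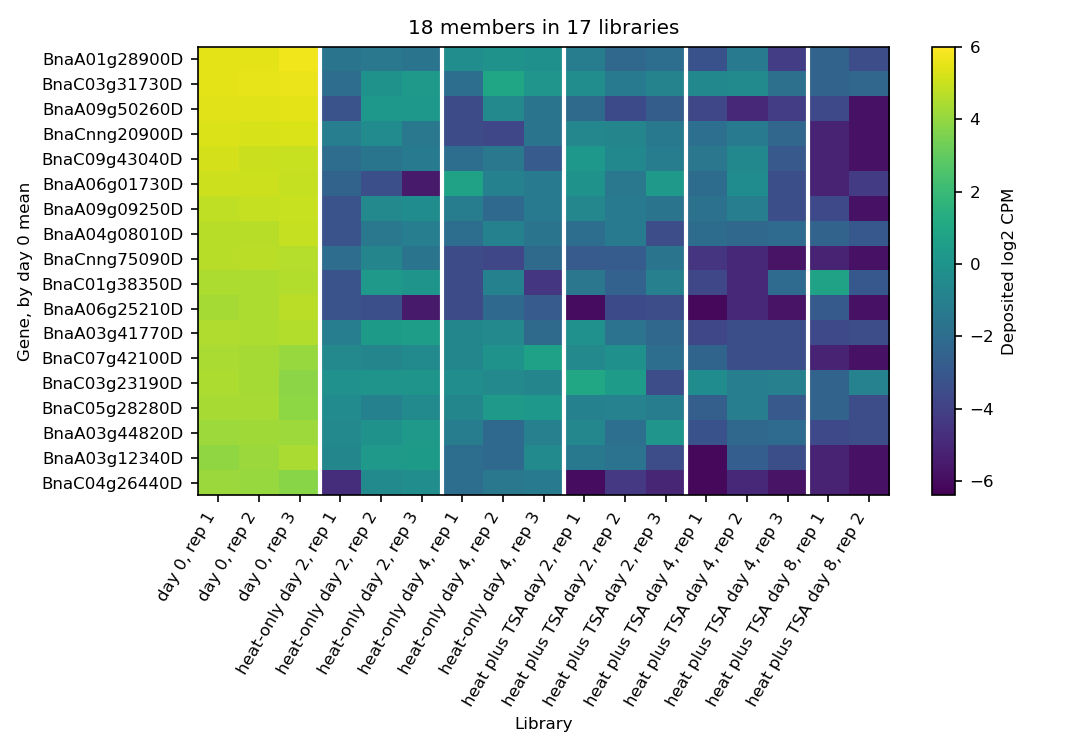
Deposited log2 CPM of the 18 members (rows, by day 0 mean) in the 17 libraries (columns, by group and replicate). Day 0 is uniformly high, and the darkest cells, at 0 counts, are most frequent in TSA day 4 and TSA day 8. The value shown for 0 counts depends on library size, from -6.11 in TSA day 4 replicate 1 to -3.50 in heat-only day 4 replicate 1.

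The tests compare residual levels between cultures, on which the selection placed only an upper limit. That limit did not act evenly, since most genes that missed membership by a single group were above it in a heat-only group. Shares and medians of the members beside all genes therefore describe what the limit left. Its part in them was not tested. All comparisons used the quasi-likelihood test of edgeR over all genes, with Benjamini-Hochberg adjustment and a call at an adjusted p under 0.05. The SE beside a fold change was derived from the test, as the absolute log2 fold change over the square root of its F statistic. It is not an SE estimated by the fit, and it need not behave as one where counts are few. All 18 members passed the filter on low counts through their day 0 counts, so counts of calls among them are descriptions. Shares over all genes were computed only for the adjusted calls of the main edgeR fit. Counts of calls from DESeq2 and the other alternatives have no such share beside them. Dispersions were fitted over all 17 libraries, day 0 included, and every alternative kept day 0 in the fit. Adjusted p-values of single members with few culture counts therefore rest in part on day 0 and are descriptions as well. The replicates are called biological in the study's design text.

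TSA against heat alone at day 2 gave calls in both directions. Of the 18 members 2 were higher with TSA, 5 were lower and 11 were not called, at shares of 11.1% and 27.8%. Over all genes tested 34.8% were higher and 31.6% lower, so neither share of the members was above the background. All genes were not held to the culture limit, so this does not show how the members would compare without it. The median log2 fold change was -0.47 over the members and 0.06 over all genes. With library totals in place of TMM scaling, 2 were higher and 3 lower.

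BnaA06g01730D was higher with TSA. It had 0.149, 0.0813 and 0 CPM in heat-only day 2 (4 counts in all) and 0.883, 0.338 and 1.13 CPM in TSA day 2 (61 counts). The groups did not overlap, and all 3 TSA libraries lay above the heat-only ones. The log2 fold change was 3.37 ± 0.88 (SE, edgeR adjusted p = 0.00313), and all 14 alternatives kept the call. BnaC09g43040D had 0.223, 0.325 and 0.410 CPM with heat alone and 1.09, 0.614 and 0.397 CPM with TSA, a log2 fold change of 1.14 ± 0.45 (edgeR adjusted p = 0.0373). Its groups overlapped in TSA replicate 3, and the call was lost without heat-only replicate 1 or 2 or TSA replicate 1, and with heat-only replicates 2 and 3 summed, with an adjusted p of up to 0.245.

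BnaC04g26440D was lower with TSA. It had 0, 18 and 18 counts in heat-only day 2, or 0, 0.732 and 0.820 CPM, and 0, 1 and 0 counts in TSA day 2. Heat-only replicate 1 was thus as empty as the TSA libraries. Over summed counts the ratio was 50.5 (exact 95% interval 8.51 to 2051, counting error only), and the edgeR adjusted p of 5.70e-04 stayed under 0.05 in all 14 alternatives. BnaA03g12340D had 0.596, 1.26 and 1.32 CPM with heat alone and 0.353, 0.276 and 0.0567 CPM with TSA. These groups did not overlap on the TMM scale, and the gene fell by 2.09 ± 0.49 on the log2 scale (edgeR adjusted p = 0.00136, kept in 14 of 14 alternatives). Over raw totals they overlapped, with 8 of 17845967 counts in heat-only replicate 1 and 12 of 25117022 in TSA replicate 1. BnaA09g50260D fell by 2.72 ± 0.64 (edgeR adjusted p = 0.00137, kept in 14 of 14), although heat-only replicate 1, at 0.0745 CPM against 1.18 in each of the other two, lay among the TSA values of 0.206, 0.0614 and 0.113. BnaCnng75090D fell by 1.34 ± 0.49 and BnaA03g41770D fell by 1.29 ± 0.44, and their calls were lost in 5 and 6 of 14 alternatives.

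Without heat-only day 2 replicate 1, 1 member was higher and 7 were lower at day 2. BnaC09g43040D lost its call, and BnaC01g38350D and BnaC03g31730D gained one. Without heat-only replicate 2 the count was 1 higher and 3 lower. With heat-only replicates 2 and 3 summed it was 1 higher and 4 lower.

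At day 4, 7 of 18 members (38.9%) were lower with TSA, none was higher and 11 were not called, where 27.3% of all genes were lower and 40.3% higher. The median log2 fold change was -1.69 over the members and 0.44 over all genes. With DESeq2 8 members were lower and none higher, and 8 members had an unadjusted edgeR p under 0.05. The share of all genes was not computed for either count. The split rested on the scaling. With library totals alone 2 members were higher (BnaC09g43040D and BnaCnng20900D) and 4 lower, and the median over all genes moved by 1.14 log2 units. The authors' deposited table, made by their own fit, had 8 members lower and none higher at a false discovery rate under 0.05. For TSA against heat alone at day 2 it had 4 lower and 1 higher. Heat-only day 4 against day 2 had 2 lower and 1 higher in it. It had 2 lower for TSA day 4 against TSA day 2 and 10 lower for TSA day 8 against TSA day 2, with none higher in either. The shares of all genes called by the authors' fit were not computed, so these counts have no background beside them.

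BnaC07g42100D had 0.529, 0.802 and 1.40 CPM in heat-only day 4 and 0.167, 0.0588 and 0.0727 CPM in TSA day 4. The groups were well apart, and it fell by 3.10 ± 0.54 on the log2 scale (edgeR adjusted p = 1.06e-04). BnaC05g28280D had 0.529, 1.07 and 0.991 CPM with heat alone and 0.139, 0.412 and 0.109 CPM with TSA. It fell by 2.19 ± 0.46 (edgeR adjusted p = 5.12e-04). BnaA01g28900D, the member with the highest day 0 level, had 0.706, 0.802 and 0.743 CPM with heat alone. With TSA it had 0.0835, 0.353 and 0.0363 CPM, and it fell by 2.51 ± 0.53 (edgeR adjusted p = 5.57e-04). On the TMM scale every TSA library lay below every heat-only library in all 3 genes, and all 13 alternatives kept the calls. Over raw totals 2 of them overlapped. BnaC05g28280D had 7 of 15275408 counts in TSA replicate 2 and 3 of 9360060 in heat-only replicate 1. BnaA01g28900D had 6 of 15275408 counts in TSA replicate 2 and 6 of 17030037 in heat-only replicate 2. The share of all genes separated in this way was not computed.

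BnaC04g26440D had 1, 2 and 4 counts in heat-only day 4 and none in TSA day 4, which makes it at least 7.43-fold lower against a floor of 3 counts over the group. Its call (edgeR adjusted p = 0.00801) was kept in 13 of 13 alternatives. BnaA03g12340D fell by 2.64 ± 0.92 and BnaA03g41770D fell by 2.44 ± 0.91 on the log2 scale. The call of the first was lost without heat-only replicate 3 or TSA replicate 1, and of the second without heat-only replicate 1 or 2 or TSA replicate 1. Library totals ended both calls. BnaA06g25210D was called on 2 counts against 0, too few for a fold, and kept its call in 3 of 13 alternatives. Without TSA day 4 replicate 1 the number of members called fell from 7 to 4.

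**Figure D4:**
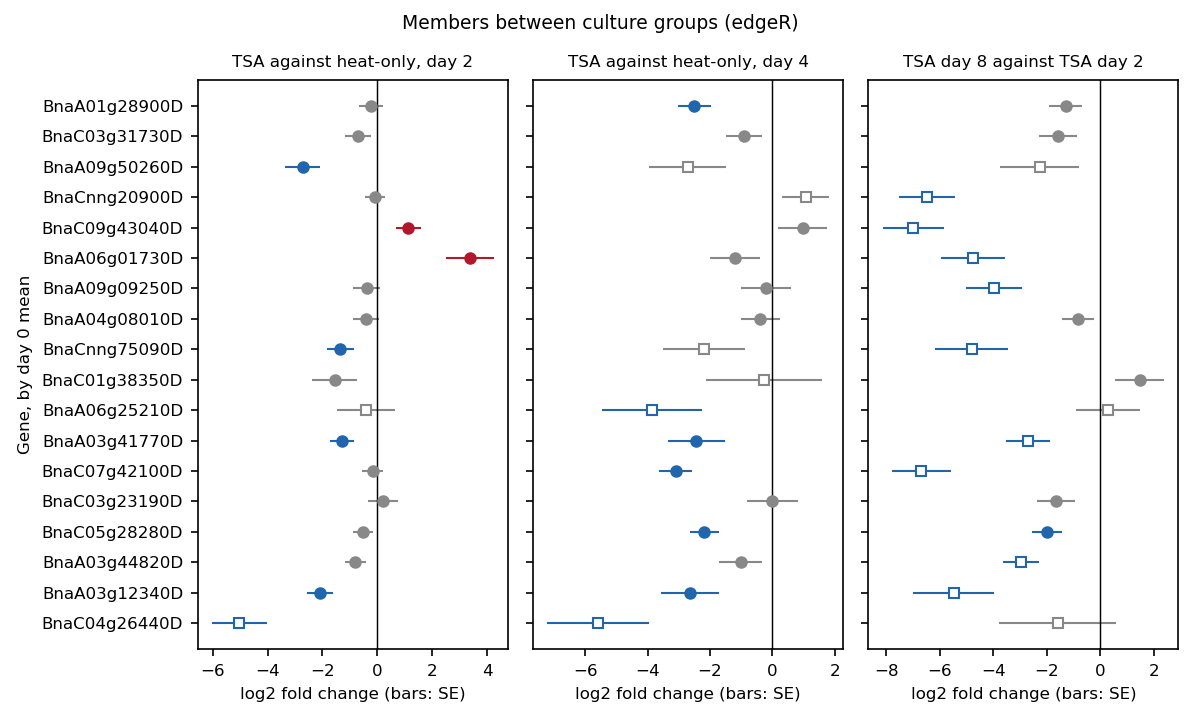
Log2 fold changes of the 18 members (edgeR) for TSA against heat-only at days 2 and 4 and for TSA day 8 against TSA day 2. Bars are the SE derived from the F statistic of the test. Red marks members called higher, blue members called lower, grey the rest, and open squares mark a group with 3 counts or fewer, where the fitted value depends on the prior count. Calls go both ways at day 2 and only downward at day 4 and from day 2 to day 8.

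The effect of TSA differed between the 2 days for 4 members, by an interaction test added after the data had been seen. All 4 were lower (22.2% of the members, with none higher, beside 10.5% lower and 14.3% higher over all genes), so their TSA effect was more negative at day 4. For BnaC07g42100D the difference of the day 4 and day 2 effects was -2.93 ± 0.67 log2 (edgeR adjusted p = 0.00541), and for BnaA06g01730D it was -4.56 ± 1.23 (edgeR adjusted p = 0.0143). All 20 alternatives kept these 2 calls. BnaA06g01730D had the opposite order of means on the 2 days, with 0.0768 against 0.785 CPM (heat-only against TSA) at day 2 and 0.773 against 0.334 CPM at day 4, the latter not called. For BnaA01g28900D and BnaC05g28280D the differences were -2.28 ± 0.70 and -1.68 ± 0.58, with calls lost in 4 and 10 of 20 alternatives. A run is named in the labels for 1 of the 4 groups in this test, TSA day 2, and the day 4 dose is given in 2 ways.

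**Figure D5:**
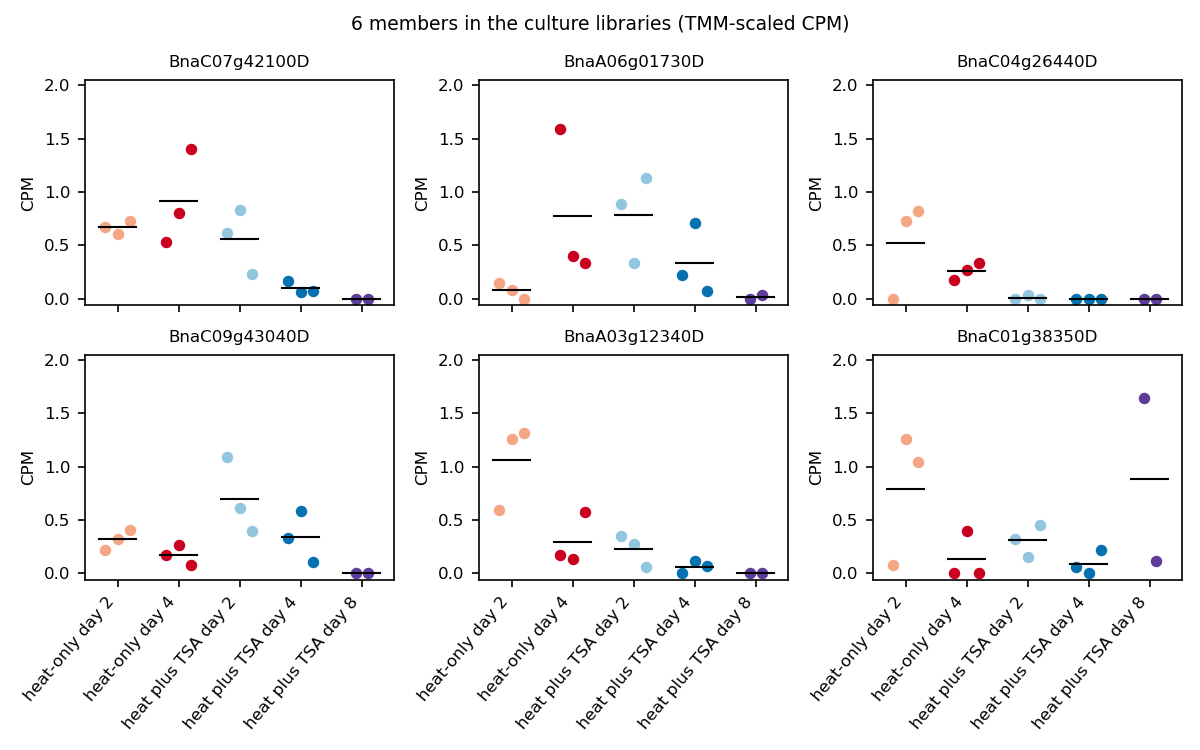
CPM (linear axis, TMM-scaled) of 6 members in the 14 culture libraries, with points for libraries and bars for group means. BnaC07g42100D is low in TSA day 4 and at 0 in TSA day 8, BnaC04g26440D is at or near 0 in all TSA groups, and 1 library of TSA day 8 reaches 1.65 CPM for BnaC01g38350D. These 6 were picked for display after their values were seen.

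Between days 2 and 4 of heat-only culture 1 member was higher, 5 were lower (27.8%) and 12 were not called, where 22.2% of all genes were higher and 23.2% lower. BnaA06g01730D was higher at day 4, with 1.59, 0.401 and 0.330 CPM beside 0.149, 0.0813 and 0 at day 2. The groups did not overlap, and the log2 fold change was 3.19 ± 1.06 (edgeR adjusted p = 0.0227). The call was lost with library totals and without heat-only day 4 replicate 1, with an adjusted p of up to 0.0970. BnaCnng20900D had 6, 19 and 8 counts at day 2 and 0, 0 and 3 at day 4, a ratio of 4.63 (exact 95% interval 1.45 to 23.6, edgeR adjusted p = 0.0158). BnaA03g44820D had 0.670, 0.976 and 1.23 CPM at day 2 and 0.353, 0.134 and 0.413 CPM at day 4. It fell by 1.63 ± 0.54 on the log2 scale (edgeR adjusted p = 0.0205). The call of BnaCnng20900D was lost in 4 of 14 alternatives and that of BnaA03g44820D in 8. BnaCnng75090D, BnaA03g41770D and BnaA03g12340D were also called lower and lost the call in 8, 9 and 8.

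The split of these calls depended on the scaling and the tool. It was 2 higher and 1 lower with RLE factors, 2 higher and none lower with DESeq2, 2 of each with no filter on low counts, and none higher and 8 lower with library totals. Without heat-only day 2 replicate 1 it was 2 higher and 6 lower. The calls fell to 2 in all without heat-only day 2 replicate 2 or 3, and to 1 without heat-only day 4 replicate 1 or 2.

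Between days 2 and 4 of culture after TSA, all 18 fitted log2 fold changes were negative and 4 members (22.2%) were called lower, none higher. Over all genes only 2.36% were lower and 4.04% higher, with a median of 0.04 beside -1.44 over the members. With DESeq2 3 members were lower and none higher, and 10 had an unadjusted edgeR p under 0.05, both without a share of all genes to compare. The labels name a run for TSA day 2 but none for TSA day 4, and the treatment field gives 0.5 µM at day 2 against 0.05 µM at day 4, so time cannot be told apart from run or, if that field holds, from dose. BnaC07g42100D had 0.618, 0.829 and 0.227 CPM at day 2, and its day 4 values of 0.0588 to 0.167 CPM given above lay below all of these. It fell by 2.37 ± 0.49 on the log2 scale (edgeR adjusted p = 0.0104, kept in 13 of 13 alternatives).

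BnaA03g41770D had 0.853, 0.276 and 0.170 CPM at TSA day 2 and 0.0556, 0.0588 and 0.0727 at day 4. It fell by 2.80 ± 0.69 (edgeR adjusted p = 0.0228). BnaA03g44820D fell by 1.85 ± 0.49, and BnaCnng75090D had 13 counts at day 2 and 1 at day 4, a ratio of 12.4 (exact 95% interval 1.87 to 528). These 3 calls were lost in 4, 4 and 9 of 13 alternatives. Leaving out TSA day 2 replicate 1 or TSA day 4 replicate 1 brought the number of calls from 4 to 1, and leaving out TSA day 4 replicate 3 brought it to 2.

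By day 8 after TSA, 10 of 18 members (55.6%) were lower than at TSA day 2, none was higher and 8 were not called. Over all genes 33.2% were lower and 24.3% higher. Both groups are from the run the labels name, but the TSA doses differ, 0.05 against 0.5 µM, so dose and time cannot be told apart. The median log2 fold change was -2.49 over the members, or -1.98 with 5 of the 6 genes at 0 counts set to their bound (the sixth had 1 count at day 2), and -0.17 over all genes. With DESeq2 12 members were lower and none higher, and 12 had an unadjusted edgeR p under 0.05, both without a share of all genes to compare.

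BnaCnng20900D had 20, 18 and 6 counts in the TSA day 2 libraries and none at day 8, at least 7.84-fold lower (edgeR adjusted p = 9.23e-05). BnaC07g42100D went from 52 counts to none, at least 9.27-fold lower (edgeR adjusted p = 9.53e-05), and BnaC09g43040D from 64 counts to none, at least 11.4-fold lower. BnaA03g12340D, with 22 counts at day 2, was at least 3.92-fold lower, and BnaCnng75090D, with 13 counts, at least 2.32-fold lower. Bounds here use 3 counts over the day 8 group. BnaA06g01730D went from 61 counts to 1, a ratio of 32.6 (exact 95% interval 5.64 to 1309), and BnaA09g09250D from 37 to 1, a ratio of 19.8 (3.34 to 802). The last 3 called lower were BnaA03g44820D (45 counts to 3), BnaA03g41770D (41 to 3) and BnaC05g28280D, which fell by 1.98 ± 0.56 on the log2 scale.

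Between the 2 day 8 libraries BnaC01g38350D differed most. It had 31 counts in replicate 1 and 3 in replicate 2, or 1.65 and 0.115 CPM, beside 0.324, 0.153 and 0.454 CPM at TSA day 2. It was not called with both libraries. Without replicate 2 the comparison rested on 1 day 8 library, taken to vary as the other groups do, and 6 members were lower and 1, BnaC01g38350D, was higher. BnaC03g23190D varied likewise within TSA day 2, with 1.94, 1.26 and 0.0567 CPM, and without replicate 3 of that group it was over the culture limit.

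Outside the rule, the members shared no position. They lay on 9 A and 9 C subgenome genes, where the deposited table has 47.2% A and 52.4% C genes. Chromosome A03 held 3 of them, and A06, A09, C03 and the unplaced C set held 2 each. No 2 members were next to each other, and the closest pair, BnaA03g41770D and BnaA03g44820D, was 305 genes apart in ID order. Adjacency was taken from ID order, which for the unplaced C set does not show position on a chromosome. Of the 36 genes adjacent to a member, those of the unplaced set included, 30 were in the log2 CPM table. Day 0 was the highest of the 6 groups for 10 of these (33.3%), against 15.5% of all genes, but only 4 (13.3%) had a day 0 mean of at least 4, against 14.8% of all genes. BnaA01g28890D, beside the highest member BnaA01g28900D, had a day 0 mean of 7.01 log2 CPM and 2.89 in heat-only day 2. BnaA09g50250D, beside BnaA09g50260D, went the other way, with 1.69 log2 CPM at day 0 and 6.09 in heat-only day 2. These 2 neighbours were chosen after their values were seen.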

How the data were processed

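The authors deposited raw counts per gene, log2 CPM values given to 2 decimals, and log2 fold changes with false discovery rates (adjusted p-values) for 10 comparisons, per the file headers. Limma is named in the submitters' processing notes, while for the aligner, the counter, the build and the annotation no name is given in the sources used here. Members were found from the deposited log2 CPM values. Tests used the deposited counts in edgeR 4.0.16 (R 4.3.3): quasi-likelihood, TMM scaling, filterByExpr, robust dispersion, 1 coefficient per group over all 17 libraries, two-sided, with Benjamini-Hochberg adjustment over 64330 genes. The script was tested on simulated counts, with changes set only in genes above a minimum expected count. That test does not cover groups with counts near the floor. DESeq2 1.42.0, other scalings, no filter, a replicate block and single libraries left out were alternatives. Replicate numbers were not used to pair samples. No comparison had a correlation of same-numbered samples over 0.1 in every pair, but this cannot show that samples were unpaired. The correlation was 0.0789 to 0.498 for TSA day 4 against day 2 and 0.0801 to 0.295 for heat-only day 4 against day 2. In the other comparisons it was -0.123 to 0.0743. Intervals and floors cover counting error only. The members and all lists were chosen with earlier results of these data known. Named genes were the 10 highest members, those next to the limits, the 2 lowest p per comparison and direction, and the 3 with the widest day 0 spread. Others were named after their values were seen. From the authors' fold changes only counts of members were taken.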

Additional observations from a re-analysis of the deposited data

Results flagged for a closer look

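For 4 members the effect of TSA against heat alone differed between day 4 and day 2 in the test of the difference itself, which puts them here. BnaC07g42100D differed by -2.93 on the log2 scale and BnaA06g01730D by -4.56, and both calls held in the 20 alternatives run. BnaA01g28900D differed by -2.28 and BnaC05g28280D by -1.68, with calls that were lost in 4 and 10 of 20. Of the 4 groups involved only TSA day 2 has a sequencing run named in the labels, and the day 4 dose is given in 2 ways. The part of either in these differences was not tested.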

How the results depend on the processing

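Every member call kept its direction: of 525 values from alternatives to 38 calls, 417 were still called and 108 were not. The number of members was 6 with a day 0 minimum of 5, 48 with a minimum of 3, 50 with a culture maximum of 1 and 5 with a maximum of -1. Leaving out single libraries gave 11 to 22, the lowest without heat-only day 2 replicate 1. Group medians gave 13 members (11 shared) and log2 CPM from the raw counts 16 (14 shared). The day 0 share of counts was 0.0837% without the 100 most abundant genes of each library and 0.0790% for the members found without day 0 replicate 3. With library totals the members' median log2 fold change from day 0 was -6.50 in heat-only day 2 and -7.55 in heat-only day 4. Calls ranged over left-out libraries from 4 to 8 for TSA against heat-only at day 2 and at day 4, from 1 to 8 for heat-only day 4 against day 2, from 1 to 3 for TSA day 4 against day 2, from 7 to 12 for day 8 and from 2 to 4 for the interaction. Heat-only day 4 against day 2 had 2 calls with DESeq2, 3 with RLE factors and 3 with heat-only day 2 replicates 2 and 3 summed, an alternative chosen after seeing the data. The interaction had 2 with library totals. With a replicate block the counts were 7, 6, 6, 3, 11 and 3 in the order of the ranges above, beside 7, 7, 6, 4, 10 and 4 without it. Correlations of same-numbered samples ran from -0.12 to 0.50, which does not settle whether any were paired. For day 8 and day 2 after TSA the number coincides with the lane. Apart from the scaling and the libraries left out, whose construction shows it, the cause of these changes was not tested. In the culture libraries 3 counts stand for 0.0835 to 0.529 CPM, and 2 to 14 of the 18 members had fewer than 3 counts in a library.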
